A study of Mus musculus with 15 samples.

Results

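Cassette exons whose length is not a multiple of 3 shift the reading frame when they are left out of, or put into, a coding sequence. Here they were described in antigen-primed CD8+ T cells of the mouse, with and without costimulation. Of 138940 splicing events for which the study's table gives a percent spliced in (PSI, the share of transcripts that include a stretch, between 0 and 1), 108413 were core exons, and 972 of those in 716 genes met the rule. It asked for a length of at least 28 bases that is not a multiple of 3, a mean PSI of the 2 groups from 0.1 to 0.9, and a host gene with a mean of at least 10 CPM (gene counts scaled to the library total) over 10 libraries. Length, mean PSI and CPM chose the exons and are therefore given only as description.

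CD8+ T cells of OT-I mice (strain given as OT-1 Tg C57BL/6J), which carry 1 transgenic T cell receptor for an ovalbumin peptide, were transferred into C57BL6/J recipients. Recipients were given antigen without costimulation (Ag, 5 libraries) or antigen with stimulating antibodies to OX40 and 41BB, receptors that costimulate T cells (Ag+Costim, 5 libraries). Per the study's methods, Ag recipients also received a control rat IgG. The labels place collection of spleen and lymph nodes 4 days later, followed by a sort for CD8+ T cells, and the labels give no age. By the study's methods the sort came less than 4 days after stimulation. The study describes mice of both sexes, with an age range for all its experiments and not for each group. Naive OT-I cells without transfer, also in the labels, were not analysed here.

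When translation meets a stop codon well upstream of the last exon junction, the protein complex left at that junction marks the mRNA for nonsense-mediated decay, a surveillance pathway led by UPF1. Skipping of a frame-shifting exon can therefore lower the amount of a protein without a change in transcription, and many RNA-binding proteins are known to control their own level in this way. Exons of this kind in untranslated regions, or those that hold the start or stop codon, change the ends of the message or protein instead.

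Estimated counts per library came to 59.6 M to 449 M in Ag and 332 M to 639 M in Ag+Costim. Ag libraries 1, 3 and 4 stood apart, with 40441 to 51778 genes above 0 against 20714 to 30340 in the other 7. The 7 CD8 T cell genes checked (Cd3d, Cd3e, Cd3g, Cd8a, Cd8b1, Cd2 and Lck) summed to 4640 to 8460 CPM for Ag and 4730 to 5730 CPM in Ag+Costim. Markers of other cells were lower, with sums over 4 B cell genes of 15.8 to 343 CPM for Ag and 12.8 to 28.6 CPM in Ag+Costim. Sums over 4 erythroid genes were 6.80 to 797 CPM for Ag and 1.93 to 22.6 CPM in Ag+Costim, over 4 myeloid genes 44.3 to 102 and 56.4 to 121 CPM, and over 2 NK cell genes 1.9 to 19.5 and 0.437 to 1.97 CPM. Cd4 alone was at 0.0314 to 6.04 CPM for Ag and 0.0571 to 0.842 CPM in Ag+Costim. No marker gene was at 0 in every library. The B cell sum was at 154, 343 and 172 CPM in Ag 1, 3 and 4 and at no more than 28.6 CPM elsewhere, and its part in the values that follow was not tested.

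A few sequences show what such an exon does to the frame. Exons and joined exons are from GENCODE M21 transcripts (mm10), written 5′ to 3′ on the strand of the transcript, and capitals mark the stop codon that is met first once the exon is skipped. Each skipped form begins with the last 15 bases of the upstream exon. Cd8a, the coreceptor chain that defines these cells, is shown because its 31-base exon (exon 4 of 5, chr6:71375888-71375918, plus strand) encodes part of the cytoplasmic tail. Its skipping leads to a stop 5 bases past the junction, in the last exon.
Cd8a exon: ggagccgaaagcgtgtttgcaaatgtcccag
Cd8a skipped: tcatctgctaccacagccgcTAG

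The next set is shown because the genes encode regulators of splicing. Ptbp2 is a repressor of exon inclusion (34-base exon 10 of 14, chr3:119724612-119724645, minus strand). Clk1 is a kinase of SR proteins (91-base exon 4 of 13, chr1:58420121-58420211, minus strand). The new stop lies 24 bases past the junction in Ptbp2 and 18 bases past it in Clk1.
Ptbp2 exon: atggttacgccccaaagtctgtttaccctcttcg
Ptbp2 skipped: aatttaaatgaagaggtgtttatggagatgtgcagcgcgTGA
Clk1 exon: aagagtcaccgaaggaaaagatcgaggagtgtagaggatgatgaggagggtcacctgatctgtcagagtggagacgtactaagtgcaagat
Clk1 skipped: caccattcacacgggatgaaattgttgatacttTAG

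Dlg1, a scaffold of the immune synapse, holds a pair of neighbouring exons of 100 bases (chr16:31846834-31846933) and 34 bases (chr16:31847636-31847669), both on the plus strand. They are shown together because each is 1 base over a multiple of 3. Either one alone therefore leaves the same downstream frame, and a transcript with neither stops 6 bases past the junction.
Dlg1 100-base exon: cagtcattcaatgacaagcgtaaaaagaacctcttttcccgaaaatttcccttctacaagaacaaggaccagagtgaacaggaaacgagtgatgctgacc
Dlg1 34-base exon: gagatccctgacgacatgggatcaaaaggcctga
Dlg1 with neither: agaggagataaagggagcacgTAA

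Sh3kbp1, an adaptor of receptor endocytosis (158-base exon 2 of 18, chrX:159683544-159683701, plus strand), and Ddx60, an interferon-induced helicase (142-base exon 9 of 38, chr8:61954498-61954639, plus strand), are shown because their PSI differed widely between the groups. Skipping leaves 13 of 665 residues before the new stop in Sh3kbp1 and 350 of 1710 in Ddx60.
Sh3kbp1 exon: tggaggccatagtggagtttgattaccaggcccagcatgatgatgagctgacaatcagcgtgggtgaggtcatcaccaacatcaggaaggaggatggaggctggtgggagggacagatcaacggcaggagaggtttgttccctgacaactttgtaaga
Sh3kbp1 skipped: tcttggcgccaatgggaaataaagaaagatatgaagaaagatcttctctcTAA
Ddx60 exon: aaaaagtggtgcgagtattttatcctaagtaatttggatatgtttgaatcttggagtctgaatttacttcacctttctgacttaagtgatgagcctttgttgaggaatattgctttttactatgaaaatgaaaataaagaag
Ddx60 skipped: actgtcctaaaaatggcctggattTGA

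The 972 exons were 31 to 2746 bases long, with a median of 104 bases, and 464 were 1 base and 508 were 2 bases over a multiple of 3. Coding exons made up 750, 191 lay in 5′ UTRs, 3 in 3′ UTRs, 25 in other non-coding transcripts, and 3 only in transcripts with a decay annotation. Among 1037 frame-preserving exons chosen by the same limits, 944 (91.0% against 77.2%) were coding and 78 (7.52% against 19.7%) were in 5′ UTRs. Of the coding frame-shifting exons, 635 lay inside the coding sequence, 83 held the start codon, 23 held the stop codon, and 9 had no complete reference transcript.

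Skipping was modelled for the 635 exons inside a coding sequence. In 498 (78.4%) it brought a stop more than 50 bases before the last junction, against 3 of 869 (0.345%) frame-preserving exons. The new stop lay a median of 31.5 bases past the junction and 785 bases before the last junction, and a median of 34.7% of the residues remained. In the other 137 the first stop lay in the last exon, as in Cd8a, or no more than 50 bases before the last junction. For the 3 exons found only in decay-annotated transcripts inclusion was modelled instead where a complete transcript allowed it, and it brought such a stop in 2, in Exog (35 bases) and Pde2a (62 bases).

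PSI differed with the place of the exon. In Ag, the median PSI was 0.819 for the 498 exons with a predicted premature stop and 0.778 for the 137 without one. It was 0.714 for exons with the start codon, 0.504 for exons with the stop codon and 0.471 for 5′ UTR exons. The Ag+Costim medians were 0.846, 0.759, 0.706, 0.613 and 0.472 in the same order. A mean PSI of at least 0.5 was held by 89.6% of exons with a predicted premature stop and by 47.1% of 5′ UTR exons. These shares are descriptions, since mean PSI was a limit of the rule.

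**Figure D1:**
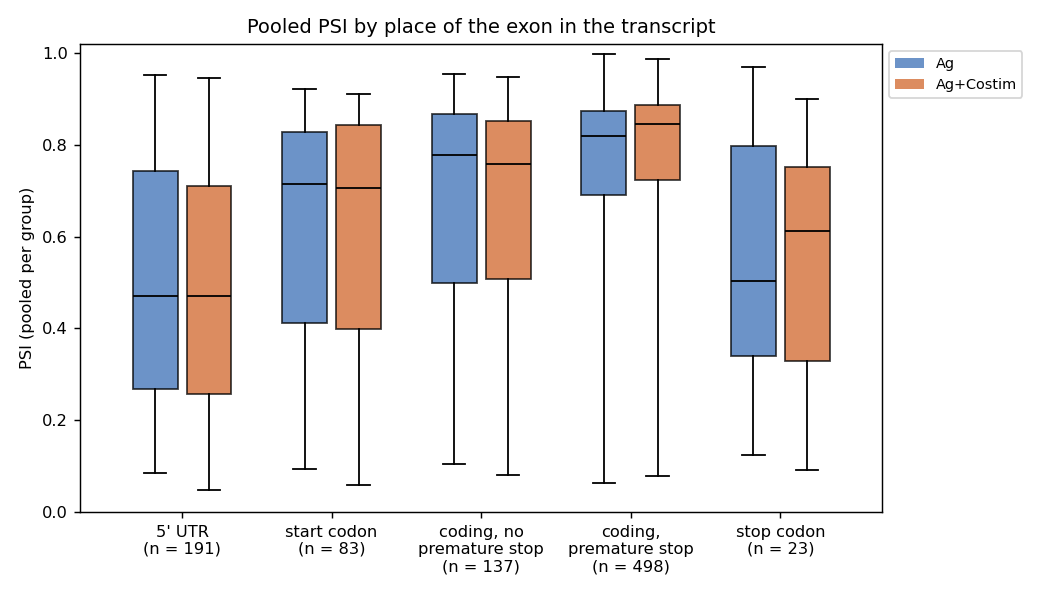
Pooled PSI (y axis, 0 to 1) of the frame-shifting exons by place in the transcript (x axis), for Ag (blue) and Ag+Costim (orange). Boxes show quartiles with the median as a line, and whiskers reach the lowest and highest exon. Exons with a predicted premature stop had the highest medians, 0.819 and 0.846, and 5′ UTR exons sat lowest, at 0.471 and 0.472.

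The PSI table gives 1 pooled value per group, so its differences have no replicate check and no test. The Ag value pools all Ag libraries, and the part of Ag 1, 3 and 4, which stood apart, in the PSI differences was not tested. With the study's thresholds (a Whippet probability over 0.9 and a PSI difference over 0.05), 38 of 972 exons (3.91%) in 35 genes were past, 14 with the higher PSI in Ag+Costim and 24 in Ag. Over all 108413 core exons 0.338% were past (0.162% with the higher PSI in Ag+Costim, 0.175% in Ag). Since core exons near 0 or 1 have little room to differ and the rule leaves them out, nothing is read from this gap. Among frame-preserving exons 42 of 1037 (4.05%) were past, 22 with the higher PSI in Ag+Costim and 20 in Ag. Without the probability, 204 frame-shifting exons were higher in Ag+Costim by over 0.05, 198 were higher in Ag, and 570 lay within 0.05. By that measure 5.50% of all core exons differed. The median absolute difference was 0.0406, against 0.0374 for frame-preserving exons.

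**Figure D2:**
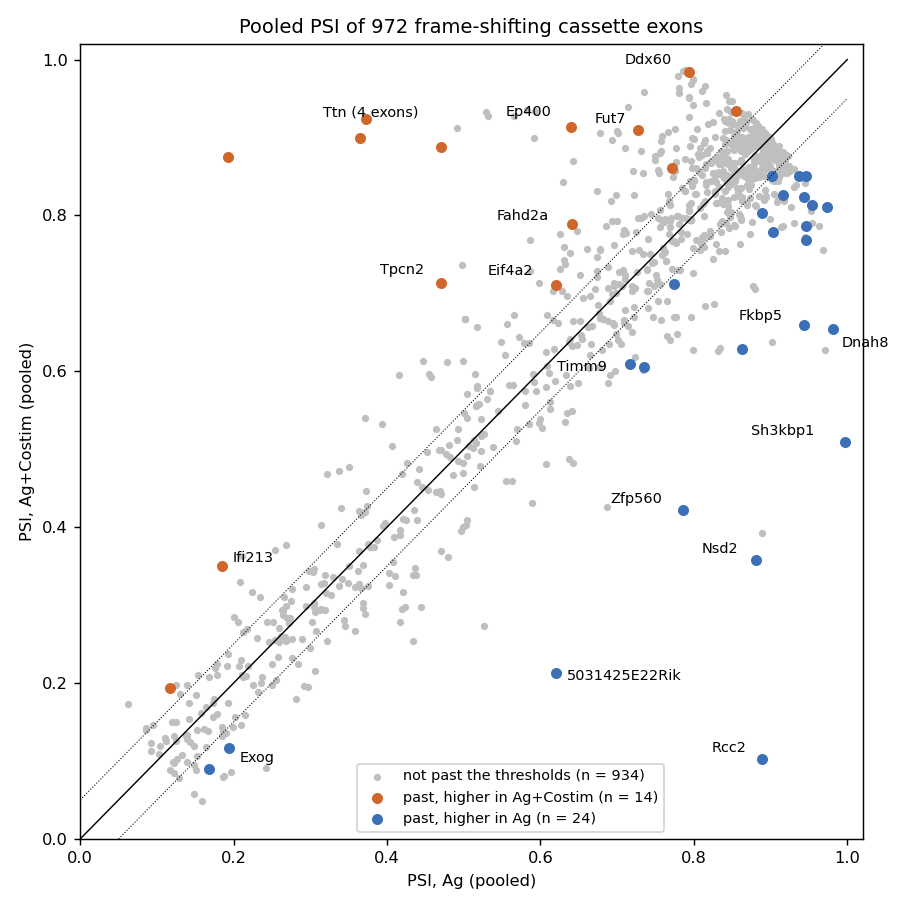
Pooled PSI in Ag (x axis) against Ag+Costim (y axis), 1 point per frame-shifting exon. Orange and blue points are the 14 and 24 exons past the thresholds, the solid line marks equal PSI and the dotted lines a difference of 0.05. Of the coloured points, Rcc2, Nsd2 and Sh3kbp1 lie farthest below the line and the 4 Ttn exons farthest above it.

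Among exons past the thresholds with a higher PSI in Ag, the widest gap was in Rcc2, a regulator of chromosome alignment at mitosis, whose 61-base 5′ UTR exon was at 0.889 in Ag and 0.102 in Ag+Costim. A 70-base 5′ UTR exon of Nsd2, a histone H3 lysine methyltransferase (Whsc1 in the table), was at 0.880 and 0.358. Sh3kbp1 followed at 0.997 and 0.509. The 92-base exon of the non-coding 5031425E22Rik was at 0.620 and 0.213, and a 251-base exon of it, not past the probability threshold, was at 0.889 and 0.392. Next came the zinc finger gene Zfp560 at 0.785 and 0.422, and the dynein heavy chain gene Dnah8 at 0.981 and 0.654. Fkbp5, a co-chaperone of the glucocorticoid receptor, was at 0.944 and 0.659 in a 5′ UTR exon. Slc25a53, a mitochondrial carrier gene, was at 0.863 and 0.628, the nuclear receptor gene Nr2c2 at 0.946 and 0.769, and Pkd1, which encodes polycystin-1, at 0.974 and 0.810.

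The other 14 with a higher PSI in Ag were in Erbb3, Ncoa7, Adal, Gbp8, Dclre1c, Timm9, Slc29a3, Gen1, Ccdc130, Ccdc163, Pgap2, Exog, Hikeshi and Ypel3. Dclre1c encodes Artemis, a nuclease of V(D)J recombination, and its 85-base exon was at 0.944 and 0.823. Gen1 encodes a Holliday junction resolvase, and its exon with the start codon was at 0.916 and 0.827. The 35-base exon of Exog, a mitochondrial nuclease, is found only in a decay-annotated transcript and was at 0.194 and 0.117. The other exons of that kind, in Pde2a (0.709 and 0.782) and Gm28036 (0.480 and 0.506), were not past the thresholds.

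Higher in Ag+Costim were 4 exons of Ttn, the giant protein of the sarcomere, with PSI of 0.192 to 0.471 in Ag and 0.875 to 0.924 in Ag+Costim. A 170-base exon of Ep400, the ATPase of a chromatin-remodelling complex, was at 0.640 and 0.914. Tpcn2, a channel of endolysosomes, was at 0.471 and 0.713, and Ddx60 at 0.794 and 0.985. Fut7, the fucosyltransferase that makes selectin ligands on T cells, was at 0.727 and 0.910 in the exon that holds its start codon. Ifi213 (Pydc4 in the table), a PYHIN family gene, was at 0.184 and 0.351, and Fahd2a at 0.641 and 0.789, again in the exon with the start codon. The remaining 4 were Eif4a2, a helicase of translation initiation, at 0.620 and 0.7102 in the exon with the stop codon, Mllt10 at 0.771 and 0.860, the histone deubiquitinase gene Mysm1 at 0.855 and 0.934, and Trmt2b at 0.118 and 0.194.

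Of the 498 exons with a predicted premature stop, 125 had a PSI higher in Ag+Costim by over 0.05 and 81 a PSI higher in Ag. Without Ttn and Ep400 the counts were 99 and 81. The order was the other way for exons inside coding sequence without such a stop (16 and 31), for those with the start codon (12 and 21) and for 5′ UTR exons (34 and 45), and 8 and 5 exons with the stop codon differed. These counts leave out the probability. Once it was applied, 9 exons with a predicted premature stop were past the thresholds with the larger PSI under costimulation, against 10 under antigen alone. Among the 9 were 4 exons of Ttn and 1 of Ep400, so the excess of 125 over 81 was not seen with the study's thresholds. Neighbouring exons of 1 gene share reads, and no test of any of these counts was possible.

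Ttn rested on 1 library. Its host gene level, scaled between libraries with TMM factors, was 8.68, 0.706, 67.5, 4.62 and 2.55 CPM for Ag and 1.94, 3.21, 1.96, 1.01 and 1.68 CPM in Ag+Costim. Ag 3 stood far above the rest, and without it the mean used by the rule went from 11 to 3.28 CPM, so that none of its 12 exons would have been a member. Over all genes, 29 host genes with 50 members, 6 of them past the thresholds, dropped under 10 CPM once their highest library was left out. In contrast, 534 host genes were at 10 CPM or more in every library, and they held 718 members, of which 6 were past the thresholds with the higher PSI in Ag+Costim, and 16 with the higher in Ag.

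Several genes held many members. Ep400 had 14, all with a predicted premature stop, with PSI of 0.529 to 0.7995 in Ag and 0.911 to 0.976 in Ag+Costim. In Ag the exons nearest the 5′ end were lowest. Its host gene level was 76.3 ± 10 CPM (SD, n = 5) in Ag and 84.6 ± 5.3 CPM (SD, n = 5) in Ag+Costim. The 8 members of Anapc1, the largest subunit of the anaphase-promoting complex, were neighbours and almost alike, at 0.795 to 0.796 in Ag and 0.794 in Ag+Costim. The 9 members of Rexo5, an RNA exonuclease gene, ranged from 0.445 to 0.798 in Ag and from 0.452 to 0.837 in Ag+Costim. Ttc3 also held 8, and Ermard and Srp54c 7 each. Gm3435, 9030025P20Rik and Ermard, on chromosome 17, each held a run of 4 neighbouring members with a summed length of 453 bases. Whether reads were split between these genes, or between Srp54c and similar genes, was not tested.

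**Figure D3:**
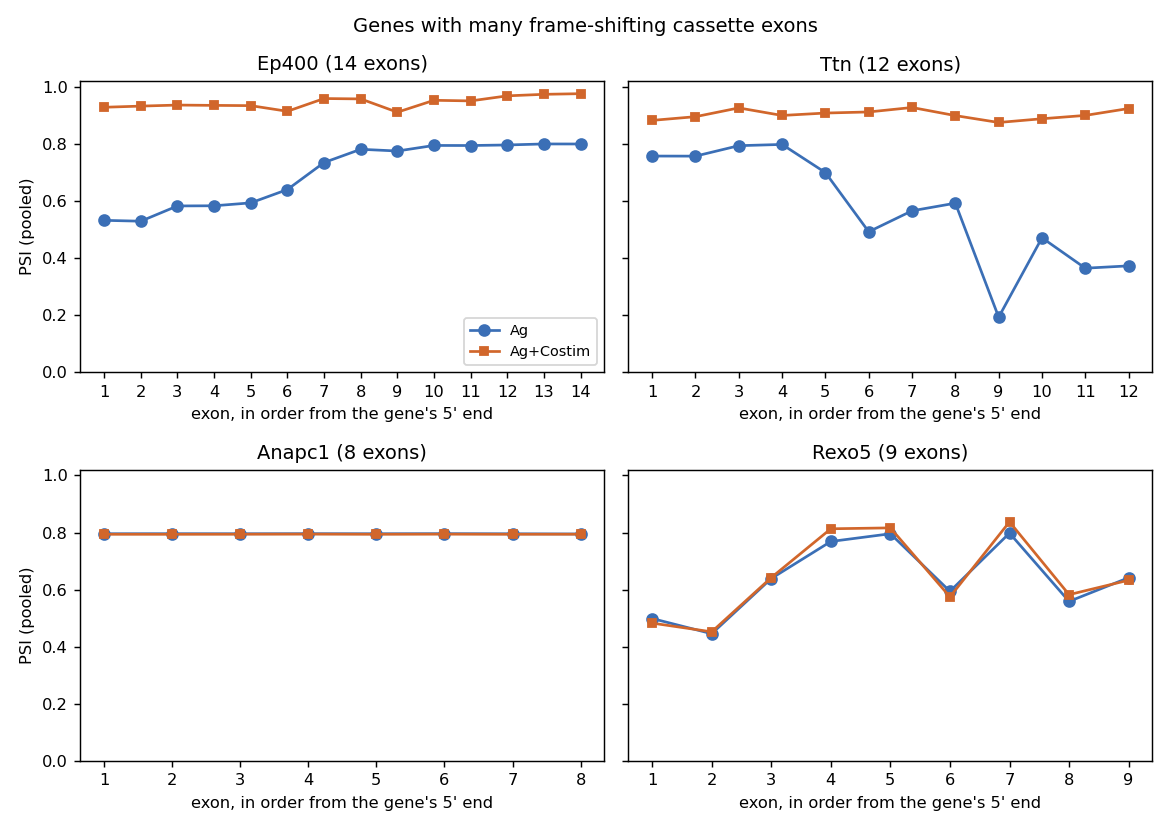
Pooled PSI (y axis) of the frame-shifting exons of Ep400, Ttn, Anapc1 and Rexo5 in order from the 5′ end of the gene (x axis), for Ag (blue circles) and Ag+Costim (orange squares). All 14 Ep400 and all 12 Ttn exons were higher in Ag+Costim, while the 8 Anapc1 exons lay at 0.794 to 0.796 in both groups.

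Members that follow each other without another exon between them formed 109 runs with 257 exons in 95 genes, 92 of the runs being pairs. In 62 of 109 runs the summed length was a multiple of 3, so that joint skipping would keep the frame. Members 1 and 2 bases over a multiple of 3 were about equally common (464 and 508). Pairs therefore often reach such a sum by arithmetic alone, and nothing is read from the share. This held for 31 of the 47 runs whose exons had PSI within 0.05 of each other in both groups, and for 31 of the 62 runs whose exons lay further apart. Where exons of a run with such a sum are skipped together, a predicted premature stop of 1 exon on its own does not describe the run. Joint skipping was not tested.

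Inclusion was also measured in each library from transcript counts, as counts on annotated transcripts that contain the exon over those plus the transcripts that span it. Of the 972 exons, 252 had no annotated skipping transcript, among them 15 of the 38 past the thresholds, and 3 had too few counts, which left 717. Median SD between libraries was 5.92 percentage points in Ag and 3.45 in Ag+Costim, and 536 of 717 exons varied more in Ag. Across these exons mean PSI and mean inclusion had a Pearson r of 0.69, and the differences between groups a Pearson r of 0.29, as a description, since both measures come from the same libraries. The median gap between mean PSI, in percent, and mean inclusion was 13.7 percentage points.

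None of the 717 was called (edgeR quasi-likelihood test, Benjamini-Hochberg adjusted p under 0.05), the lowest adjusted p being 0.514, and limma gave 0 as well. Of all 9266 core exons fitted, 3 were called (0.0324%). With Ag libraries 1, 3 and 4 left out, an alternative chosen after seeing the data, only Ag 2 and Ag 5 remained in that group. In that fit 2 of 716 members (0.279%) were called, against 64 of 8943 core exons (0.716%). They were in Ep400 and Fam160a2, with log2 odds higher in Ag+Costim by 6.55 and 13.03. With all libraries, unadjusted p was under 0.05 for 17 members (2.37%), against 5.34% of all exons fitted. Inclusion was higher in Ag+Costim for 343 members and lower for 374, with a median absolute difference of 2.41 percentage points. Of the 23 exons past the PSI thresholds that could be fitted, 17 differed in the direction of their PSI, and none had an unadjusted p under 0.05 (lowest 0.0523 by edgeR).

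The 2 groups did not overlap in 8 members, 4 with every Ag+Costim library above every Ag library and 4 below. Over all exons fitted 0.691% lay above and 1.26% below, and 1.12% of members lay on either side. Those above were in Fahd2a, Tbce, Cep70 and Il27ra. For the 251-base exon of Fahd2a inclusion was 93.8, 95.3, 87.2, 91.7 and 94.0% in Ag and 96.6, 96.8, 95.3, 96.9 and 96.9% in Ag+Costim. The means were 92.4 ± 3.2% and 96.5 ± 0.68% (SD, n = 5), and the log2 odds of inclusion were higher by 1.10 ± 0.50 (SE, edgeR adjusted p = 0.866, exact permutation p = 0.00794, two-sided, the smallest that 5 against 5 libraries can give). Lack of overlap, for which this exon is shown, fixes that permutation p, so nothing is read from it. The Fahd2a exon was the only one of the 8 that was also past the PSI thresholds.

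The 85-base exon of Tbce, a tubulin-folding cofactor, was at 92.4, 91.3, 94.9, 92.4 and 91.8% in Ag and 95.8, 95.8, 95.8, 95.3 and 95.4% in Ag+Costim. The 181-base exon of the centrosomal gene Cep70 was at 91.1, 96.0, 88.4, 95.7 and 96.0% in Ag, and every Ag+Costim library was between 96.9 and 98.5%. For the 158-base exon of Il27ra, the receptor chain for interleukin 27, Ag libraries lay between 96.0 and 97.5% (96.8 ± 0.65%, SD, n = 5), and Ag+Costim libraries between 97.5 and 98.6%, with no overlap before rounding (98.1 ± 0.43%, SD, n = 5). Pooled PSI was higher in Ag+Costim for all 3 (0.860 and 0.921 for Tbce, 0.850 and 0.921 for Cep70, 0.850 and 0.888 for Il27ra), and skipping of each was predicted to bring a premature stop.

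Below were exons of Ppp6r3, Zbtb20, Zfp62 and Ecpas. The 148-base 5′ UTR exon of Ppp6r3, a regulatory subunit of protein phosphatase 6, was at 93.7, 97.8, 95.8, 94.98 and 97.4% in Ag and 82.1, 89.4, 93.5, 90.0 and 84.2% in Ag+Costim. The 100-base 5′ UTR exon of Zfp62 was at 21.95, 33.0, 36.9, 23.7 and 31.8% in Ag and 10.1, 13.1, 14.7, 10.1 and 19.1% in Ag+Costim. It differed by -16.1 percentage points, yet its pooled PSI was 0.137 and 0.132. The 58-base exon of the repressor gene Zbtb20 averaged 96.0 ± 2.7% and 86.8 ± 5.3% (SD, n = 5). That of Ecpas, a proteasome adaptor, averaged 11.2 ± 7.7% and 2.75 ± 0.69% (SD, n = 5), with the closest libraries at 4.24 and 3.77%. All 7 other than Fahd2a had an edgeR adjusted p between 0.514 and 0.866.

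**Figure D4:**
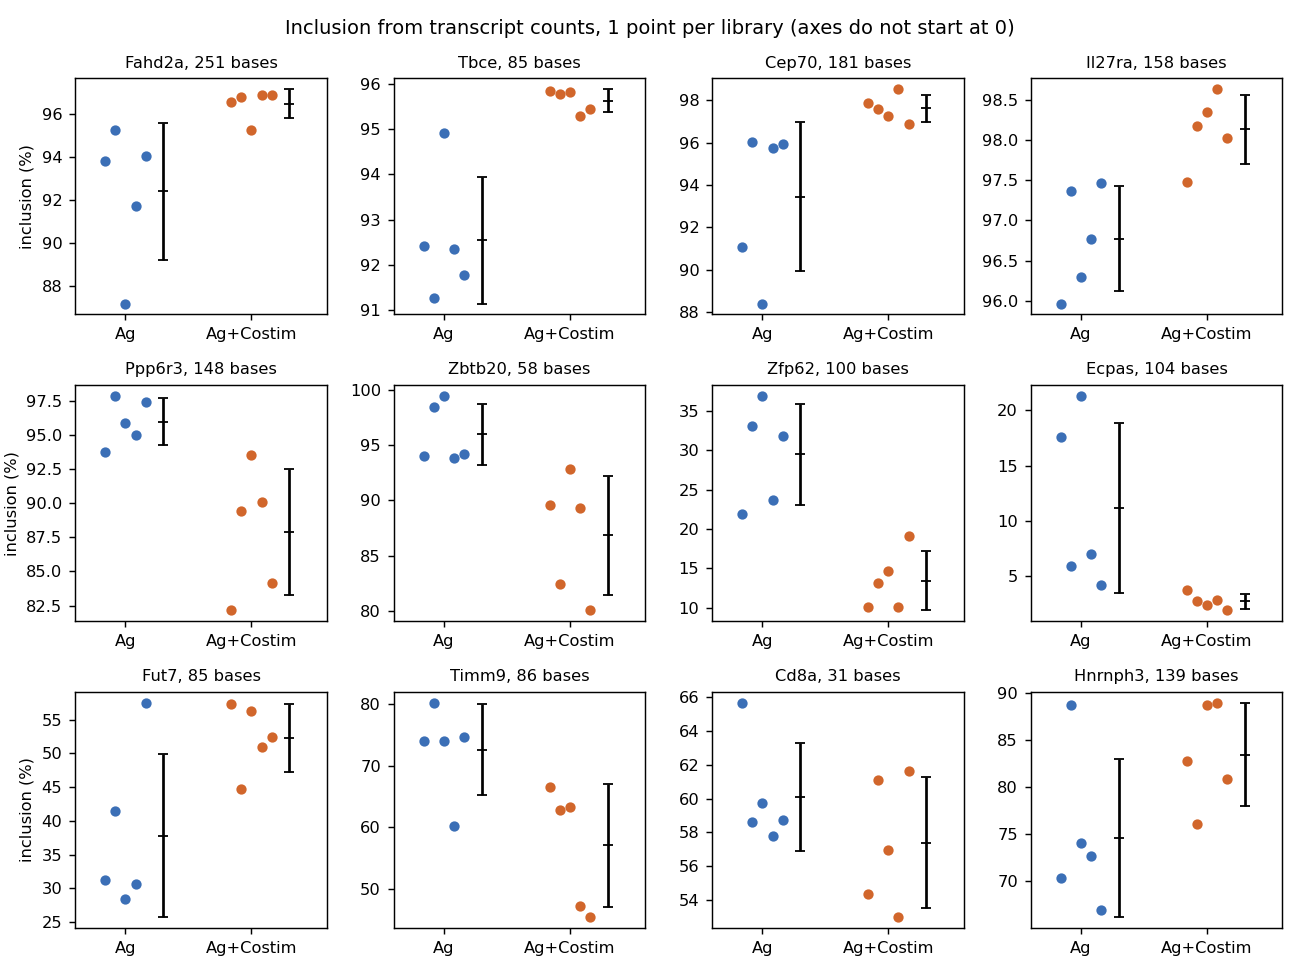
Inclusion from transcript counts (y axis, %, each panel with its own range that does not start at 0) of 12 frame-shifting exons, 1 point per library, with mean and SD as a bar, for Ag (blue) and Ag+Costim (orange). The first 8 panels are the exons whose groups did not overlap. Fut7 and Timm9 were past the PSI thresholds, Cd8a and Hnrnph3 are shown for their gene.

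Other exons past the PSI thresholds overlapped between groups. Inclusion of the Fut7 exon was 31.2, 41.4, 28.4, 30.7 and 57.5% in Ag and 57.2, 44.7, 56.3, 50.9 and 52.4% in Ag+Costim. Only Ag 5 reached the Ag+Costim range (log2 odds 0.89 ± 0.50, SE, edgeR adjusted p = 0.866, exact permutation p = 0.0635). In Timm9, a chaperone of mitochondrial protein import, the 86-base 5′ UTR exon was at 74.0, 80.2, 74.0, 60.2 and 74.7% in Ag and 66.6, 62.8, 63.4, 47.2 and 45.5% in Ag+Costim. Ag 4 alone was below the highest Ag+Costim library (log2 odds -1.01 ± 0.50, SE, edgeR adjusted p = 0.866, exact permutation p = 0.0317).

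For other exons the measures went apart. The Nsd2 exon, with a PSI of 0.880 and 0.358, was included in 97.8 to 99.9% of the transcript counts in every library, and the Eif4a2 exon averaged 86.8 ± 3.8% for Ag and 85.1 ± 3.1% for Ag+Costim (SD, n = 5). The Tpcn2 exon ranged from 52.4 to 96.4% within Ag alone. Inclusion of the Nr2c2 exon was 86.7 to 98.4% in Ag+Costim and 89.6 to 99.5% in Ag, and the Mllt10 exon averaged 97.3 ± 1.6% and 98.7 ± 0.30% (SD, n = 5).

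Splicing factors and RNA-binding proteins held 23 members in 22 genes, 11 with a predicted premature stop. None was past the PSI thresholds, 2 were higher in Ag+Costim by over 0.05 (Hnrnph3 and Sf1), 5 were higher in Ag, and the median absolute difference was 0.0312, against 0.0406 over all members. The 91-base exons of the kinase genes Clk1 (0.756 and 0.784) and Clk4 (0.651 and 0.664) differed by less than 0.05 between the groups. So did the 34-base exons of Ptbp2 (0.259 and 0.252) and Ptbp3 (0.178 and 0.210) and the 67-base exon of U2af1 (0.117 and 0.0880), the small subunit of the factor that reads the 3′ splice site. By transcript counts Clk1 inclusion ranged from 56.9 to 74.95% in Ag and from 53.3 to 77.5% in Ag+Costim. The Ptbp2 exon was at 88.8 to 98.7% in Ag and 89.5 to 95.8% in Ag+Costim, far above its PSI.

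Hnrnph3, an hnRNP of the H family, was at a PSI of 0.626 and 0.731 in a 139-base exon. Its inclusion by transcript counts was 74.6 ± 8.4% and 83.5 ± 5.5% (SD, n = 5, edgeR adjusted p = 0.866).

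T cell receptor, costimulation and cytokine signalling held 16 members in 15 genes, none past the thresholds, with 3 higher in Ag+Costim by over 0.05 and 5 higher in Ag. Cd8a was at a PSI of 0.383 and 0.374. By transcript counts its exon was at 65.7, 58.6, 59.7, 57.8 and 58.7% in Ag and 54.3, 61.1, 56.9, 53.0 and 61.6% in Ag+Costim, so that the groups overlapped (difference -2.72 percentage points, edgeR adjusted p = 0.915). The 100-base exon of Dlg1 was at 0.792 and 0.776 and the 34-base exon at 0.212 and 0.207, so that the 2 values summed to about 1 in each group, and transcript counts gave means of 59.1 ± 11% and 41.1 ± 11% in Ag (SD, n = 5). Ikbkg, the regulatory subunit of the IkB kinase, was at 0.693 and 0.897, and Nfatc2 at 0.464 and 0.525. A 40-base 5′ UTR exon of the kinase gene Fyn was at 0.877 and 0.7096, and Stat5a at 0.930 and 0.859.

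MAP kinases and regulators held 10 members in 6 genes, with 4 higher in Ag by over 0.05 and none in Ag+Costim, and none past the thresholds. Braf was at 0.916 and 0.855, Mapk14, which encodes p38 alpha, at 0.861 and 0.799, and the 2 exons of the kinase gene Rps6ka3 at 0.498 and 0.400 and at 0.642 and 0.482. The 4 exons of Atf2, a transcription factor phosphorylated by p38 and JNK, were between 0.723 and 0.907 with no difference over 0.05. Cell cycle and DNA repair genes held 25 members in 17 genes, among them 8 of Anapc1, and 1, Nsd2, was past the thresholds. The list used does not hold Gen1, Dclre1c or Rcc2, which were past them too. In that list the D-type cyclin gene Ccnd3 was at 0.971 and 0.627 in a 65-base exon.

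Transcription factors and chromatin proteins held 42 members in 20 genes, 21 higher in Ag+Costim by over 0.05 and 7 higher in Ag, and 14 of the 21 were Ep400 exons. Ubiquitin ligases and proteases held 16 members with 3 in each direction. In that list the ligase gene Herc2 was at 0.841 and 0.954 and at 0.846 and 0.947 in its 2 exons. Ribosomal proteins and translation factors held 5 members in 3 genes, 1 past the thresholds (Eif4a2) and 1 in each direction. Apoptosis genes held 1, in Cflar, at 0.8998 and 0.896.

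Decay factors themselves held 2 members, both in Rnps1, an exon junction protein, at 0.276 and 0.232 and at 0.319 and 0.338. At the gene level none of the 24 factors was called by edgeR, 5 of 24 had an unadjusted p under 0.05, close to the 18.6% of all genes tested and 23.1% of genes of 10 CPM or more, and their median log2 fold change was 0.32. The median over 8650 genes of 10 CPM or more was 0.24, and 4 of 24 factors lay above Ag in every Ag+Costim library, as did 11.3% of genes of 10 CPM or more. Upf1 was at 44.4, 51.3, 66.5, 49.9 and 63.2 CPM for Ag and 69.0, 117, 109, 90.9 and 84.6 CPM in Ag+Costim (log2 fold change 0.77 ± 0.18, SE, edgeR adjusted p = 0.154). Smg5 was at 34.5 to 52.6 CPM for Ag and 71.5 to 77.3 CPM in Ag+Costim (0.76 ± 0.14, SE, edgeR adjusted p = 0.134). Casc3, an exon junction protein, was also among them, with every Ag+Costim library at 58.7 CPM or more (edgeR adjusted p = 0.193). Of the 24 factors, 20 had a positive log2 fold change. Smg1 was lower in Ag+Costim (58.3 CPM for Ag and 40.6 CPM in Ag+Costim, log2 fold change -0.52 ± 0.30, SE, edgeR adjusted p = 0.319). So were Smg6 (-0.13), Upf2 (-0.03) and Gspt2 (-1.55, from means of 0.596 and 0.202 CPM).

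None of the 716 host genes was called by edgeR (lowest adjusted p 0.117, Szrd1), nor was any of the 24262 genes tested (0.0%). DESeq2 called 103 of the 716 (14.4%), against 13.0% of genes of 10 CPM or more and 22.3% of all genes to which it gave an adjusted p. In bulk RNA, fewer cells of a type and less RNA per cell cannot be told apart. Unadjusted p was under 0.05 for 170 host genes (23.7%), 132 higher and 38 lower in Ag+Costim, against 18.6% of all genes tested and 23.1% of genes of 10 CPM or more. Every Ag+Costim library was above every Ag library in 77 (10.8%, against 11.3% of genes of 10 CPM or more). Every Ag+Costim library was below in 4 of the 716, against 20 of 8650 genes of 10 CPM or more (0.231%). The median log2 fold change of the host genes was 0.14, and it was -0.15 with library totals alone, where the median over genes of 10 CPM or more was 0.00.

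For the exons with a predicted premature stop, the PSI difference and the log2 fold change of the host gene had a Pearson r of -0.34 over 498 exons. Without Ttn and Ep400, left out together, it was 0.00. The part of each gene was not tested, and the level of Ttn in Ag rested on Ag 3 (67.5 CPM). Sh3kbp1 was at 484 ± 83 CPM for Ag and 537 ± 51 CPM for Ag+Costim (SD, n = 5, log2 fold change 0.15 ± 0.16, SE, edgeR adjusted p = 0.551). Rcc2 was at 23.8, 55.8, 29.5, 20.8 and 44.7 CPM for Ag and 40.0 to 52.3 CPM in Ag+Costim, and Nsd2 at 25.7 to 61.2 and 60.8 to 79.2 CPM. Ddx60 was at 25.6, 5.27, 14.1, 28.3 and 3.68 CPM for Ag and at 2.45 to 11.6 CPM in Ag+Costim, with Ag 1, 3 and 4 highest. Whether Ddx60 would reach the 10 CPM of the rule without those libraries was not tested. Dnah8 was likewise highest in Ag 1 and 4 (80.5 and 76.3 CPM), and all other libraries lay between 34.8 and 47.8 CPM.

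The sequence of the exons was close to that of the frame-preserving set. Median GC content was 48.3% against 50%, and median length 104 against 102 bases. The repeats TGTGTG or GTGTGT, searched on the transcript strand because the exons are read as RNA and counted once where they overlap, were present in 63 of 971 members with a sequence (6.49%) and 59 of 1035 frame-preserving exons (5.70%). Among the 38 exons past the thresholds, 2 held 1 of them (5031425E22Rik and Slc25a53).

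The limits of the rule fell between similar exons. At the low end of mean PSI, U2af1 (0.1023) and Tollip (0.1025) were just inside, and Rnf14 (0.0983) and Golm1 (0.0969) just outside. At the high end, Nudt6 (0.9) and Rad52 (0.8999) were inside, and Zfp426 (0.9002) and Trmt11 (0.9003) outside. Akap2 and Ift57, both at 10.1 CPM, were inside the expression limit, and Gm42688 (9.99 CPM) and Osm (9.96 CPM) outside. Ralgapa1 and Elmod3 held members of 31 bases, and exons of 26 bases in Hnrnpc and Ccdc66 were too short. Expression removed 2427 of the 3399 exons inside the other limits.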

How the data were processed

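Poly(A) RNA was sequenced after SMART-Seq v4 amplification and Nextera XT library construction. Per the submitters' processing notes, reads were aligned to mm10 with HISAT2 2.1.0, sorted with SAMtools 1.9 and counted with StringTie 2.1.0. The deposited gene and transcript values are estimated counts, derived by the authors from read coverage, rounded and not normalized, so totals are not reads. The authors ran Whippet (version not given in the sources used here) for PSI. Their deposited PSI is a fraction with 1 value per group, so its depth is unknown, and Whippet's probability is a score deposited by the authors, not a p-value, used here only as a threshold. The authors' own difference of PSI, entropy and complexity columns were not used. Differences here are Ag+Costim minus Ag.

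Entries without a gene identifier were left out of totals (between 0.0458 and 0.308% of counts). Exons were matched to GENCODE M21 genes by symbol (905) or exon position (67), and 10 frame-shifting exons inside the length and PSI limits matched no gene. Skipping was modelled in the most abundant complete coding transcript that holds the exon. Gene counts (filterByExpr, TMM factors, robust dispersion) and inclusion and skipping counts (at least 20 in every library) were tested with edgeR 4.0.16 in R 4.3.3, with Benjamini-Hochberg adjustment over all features fitted, beside DESeq2 1.42.0 and limma 3.58.1. Both edgeR fits were also run on simulated counts with the same dispersion in every library. Inclusion here varied more in Ag, so nothing on power or error in these data is read from that run. The labels do not name the mouse behind each library, while the study describes 5 mice per group and its libraries as separate biological replicates, so p-values measure the spread between those samples. For 5 against 5 libraries the smallest exact permutation p is 0.00794.

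The exons and gene lists were chosen with earlier results of these data known. Named were the 10 exons past the thresholds with the widest PSI difference in each direction, exons past them in the lists, those in genes the study names, those only in decay transcripts, and those beside each limit. Other exons were named after their values were seen, among them Cd8a, Clk1, Ptbp2 and the 8 without overlap. A few items are not reported here.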

Additional observations from a re-analysis of the deposited data

Results flagged for a closer look

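In 60 groups of 5 libraries, the lowest or highest library was compared with the rest, and 6 stood apart from the others by Dixon's ratio, where chance alone gives about 1 in 20 groups. The level of Ttn was 67.5 CPM in Ag 3, and the other Ag libraries lay between 0.706 and 8.68 CPM. Inclusion of the Cd8a exon was 65.7% in Ag 1 and 57.8 to 59.7% in the other Ag libraries. Inclusion of the Nr2c2 exon was 89.6% in Ag 1, against 98.0 to 99.5%. In Ag+Costim, the Tpcn2 exon was at 63.7% in library 3, against 90.9 to 95.3%, and the Fahd2a exon at 95.3% in library 3, against 96.6 to 96.9%. The Nsd2 exon was at 97.8% in Ag+Costim 2, against 99.4 to 99.8%.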

How the results depend on the processing

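Of the exons past the PSI thresholds (38), 18 were left with a probability over 0.95, 26 with a difference over 0.1, 20 with a mean of at least 20 CPM and 18 with a mean PSI from 0.2 to 0.8. There were 93 with at least 1 CPM, 67 with a mean PSI from 0.05 to 0.95 and 402 with no probability threshold. With Ag replicate 3 out of the CPM rule 34 were past (10 higher in Ag+Costim), and without Ttn and Ep400 33 (9 higher). Of the exons with a predicted premature stop, 90 differed by over 0.1 (67 higher in Ag+Costim, 23 in Ag), in place of 206 by over 0.05. The 67 include the 14 Ep400 exons and exons of Ttn, and they were not counted without these genes. A stop anywhere before the last junction gave 518 in place of 500 predictions. The settings with a difference over 0.1 for the premature stop exons, without a probability, without Ag replicate 3, without Ttn and Ep400 and without Ag 1, 3 and 4 were added after the data were seen.

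In the fit of inclusion (3 exons called) limma gave 5 on the log2 ratio and 10 on the arcsine scale, and leaving out 1 library gave 0 to 34, the highest without Ag 5 and 0 without Ag 1 or Ag+Costim 2, 3 or 5. None of these was a member. With Ag 1, 3 and 4 left out, 64 exons were called, 2 of them members (in Ep400 and Fam160a2). For the gene level (0 called), DESeq2 called 8046 genes (930 higher, 7116 lower), 103 of them host genes, and leaving out Ag 1, 3 and 4 gave 2752, with 109 host genes. The cause was not tested. Every other setting gave 0 genes.

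Same-numbered libraries did not deviate together (correlations of -0.10 to 0.11 across genes and of -0.05 to 0.03 across exons). The numbers thus gave no sign of pairing. With Ag 1, 3 and 4 apart from the other Ag libraries, the check cannot exclude it. A replicate block gave 0 genes and 3 exons called, and 0 host genes and 0 members. Of 21 exons shown by library, 16 kept their direction under every alternative. The log2 odds of the other 5, none called, changed sign: Tpcn2 (0.97 with all libraries) was at -1.07 and Clk1 (-0.30 with all libraries) at 0.35 with Ag 1, 3 and 4 left out, Mllt10 (0.72 with all libraries) was at -0.04 in limma with 0.5 added, with and without the block, and leaving out Ag 5 or Ag+Costim 4 gave 0.01 for the 100-base (-0.23 with all libraries) and -0.01 for the 34-base exon of Dlg1 (0.23 with all libraries), whose values with 1 library left out ranged from -0.64 to 0.01 and from -0.01 to 0.63. No edgeR or limma alternative called any of the 21. The exact permutation test had p under 0.05 for 9, of which 8 were shown because their groups do not overlap, which fixes that p. Depth of the PSI values is unknown, and Ag 3, with 59.6 M counts, was the shallowest library.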
